A study of Mus musculus with 6 samples.

Results

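DNA methylation was examined in the regions of genes that write, remove or read histone marks, among them the methyltransferases, acetyltransferases, demethylases, deacetylases, Polycomb proteins and sirtuins. The members were the deposited regions with at least 3 listed cytosine positions whose transcript carried a symbol of the families Kdm, Kmt, Mll, Setd, Suv, Ehmt, Ezh, Suz12, Eed, Hdac, Sirt, Kat, Prmt, Prdm, Cbx, Pcgf or Phc, with Hdac5 left out. This gave 84 regions of 83 genes, out of 10755 deposited regions and 10021 with at least 3 positions. Phc2 was listed with 2 regions. The pattern for Mll genes also took in Mllt1, Mllt3, Mllt6 and Mllt10, which encode chromatin readers or cofactors and not enzymes. They were kept and are described apart.

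The DNA came from quadriceps muscle of C57BL/6 mice and was measured by reduced representation bisulfite sequencing (RRBS). In this assay DNA is cut with a restriction enzyme, bisulfite-treated and sequenced, and cytosines without methylation are then read as T. The exercised group held 3 samples from mice trained on a motorized treadmill over 4 weeks, with DNA taken 3 hours after the last bout, and the sedentary group held 3 samples from untrained controls. No genotype, transgene or drug is named in the labels, and neither sex nor age is given. The labels do not state whether each sample is a different animal, and p-values therefore measure no more than the spread between the sequenced samples. Whole muscle holds several cell types, and in such bulk DNA a change of methylation within cells and a change in the proportions of cell types cannot be told apart.

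Histone-modifying enzymes add or remove acetyl and methyl groups on histone tails, and these marks are read by proteins that open or close chromatin. In skeletal muscle, the class IIa deacetylases and their partner MEF2 are known for their part in the response to contraction, Ezh2 for holding muscle genes silent in progenitor cells, and the sirtuins for linking NAD+ and energy state to deacetylation. DNA methylation at the start of such a gene is usually low, since most of these genes have CpG-rich promoters. Of the genes that are best known in trained muscle, Sirt1 and Sirt6 were among the members, and Sirt3, Hdac4 and Hdac9 were not among the regions tested.

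Member regions spanned 3000 bp each and held 4 to 122 listed positions, with a median of 31. The mean coverage per position ranged from 23.3 to 97.0 reads over the 84 regions. Over the whole table, sedentary sample 3 was the shallowest with a total coverage of 9153526 and sedentary sample 2 the deepest with 18656340. The coverage of member positions summed to 105409 reads in sedentary sample 3 and to 167786 to 212899 in the other samples. Just inside the limit of 3 positions were Sirt2 and Prdm1 with 4 each, as no member had exactly 3. Just outside it were Prdm8 with 2 positions (51.1% ± 8.58 in exercised and 54.5% ± 11.0 in sedentary samples) and Hdac10 with 1 position (93.5% ± 9.19 and 98.0% ± 3.40). These and all later errors are SDs over the 3 samples of a group.

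The sequence around a cytosine was read for the members whose listed positions could be laid on a promoter of RefSeq. Promoter windows of 300 bases, from 250 before to 50 after the start of the gene, were available for 67 of the member genes. In 22 of these windows at least 8 listed positions fell on the cytosines of CpG dinucleotides at exactly 1 alignment of their spacing. No coordinates were converted, since the deposited positions are those of mm9 and the windows those of GRCm38.p6. Windows of 3 genes are shown as examples of a contrast in the matched windows: CpGs inside CCGG against all other CpGs. CCGG is the sequence cut by MspI, the enzyme commonly used for RRBS. No sequence was read outside the matched windows. The labels cite a published RRBS protocol for the libraries and do not name the enzyme themselves. Capitals mark CCGG, which is the same on both strands, and each sequence is written 5′ to 3′ on the strand of its gene.
Setd6 (GRCm38.p6, chr8:95715663-95715962, plus strand): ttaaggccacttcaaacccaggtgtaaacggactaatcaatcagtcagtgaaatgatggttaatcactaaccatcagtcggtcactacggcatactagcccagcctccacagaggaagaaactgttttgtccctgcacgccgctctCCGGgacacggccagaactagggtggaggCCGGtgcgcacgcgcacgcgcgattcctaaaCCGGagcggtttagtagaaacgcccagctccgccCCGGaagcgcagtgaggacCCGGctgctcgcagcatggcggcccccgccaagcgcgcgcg
Kmt5c (GRCm38.p6, chr7:4739877-4740176, plus strand): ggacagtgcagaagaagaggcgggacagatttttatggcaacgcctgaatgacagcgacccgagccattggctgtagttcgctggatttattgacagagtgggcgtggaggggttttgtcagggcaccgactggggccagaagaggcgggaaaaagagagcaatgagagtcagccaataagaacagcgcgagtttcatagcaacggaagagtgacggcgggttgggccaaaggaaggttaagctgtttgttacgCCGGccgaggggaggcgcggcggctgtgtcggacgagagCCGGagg
Sirt1 (GRCm38.p6, chr10:63338986-63339285, minus strand): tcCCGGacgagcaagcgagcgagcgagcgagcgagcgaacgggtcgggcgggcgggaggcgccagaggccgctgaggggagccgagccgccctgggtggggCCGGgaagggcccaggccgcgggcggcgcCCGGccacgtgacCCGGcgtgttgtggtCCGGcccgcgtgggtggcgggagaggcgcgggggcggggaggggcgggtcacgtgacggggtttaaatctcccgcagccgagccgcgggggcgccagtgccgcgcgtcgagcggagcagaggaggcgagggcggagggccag

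In the Setd6 window 7 listed positions lay in the capital stretches and averaged 52.9% methylation over the 6 samples, while the other 19 averaged 1.89% and none exceeded 4.33%. In the Kmt5c window the 2 listed positions inside CCGG averaged 57.4% and the other 10 averaged 1.29%. In the Sirt1 window the 4 positions inside CCGG averaged 58.8% and the other 8 averaged 1.69%. Most CpGs of these windows had no listed value on at least one strand: the listed positions numbered 26 for 28 CpGs in Setd6, 12 for 22 in Kmt5c and 12 for 47 in Sirt1. Among the listed positions, those outside CCGG were close to unmethylated.

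Over all 22 windows, 110 listed positions lay inside CCGG and 302 elsewhere. Those inside CCGG had a mean level of 57.9%, and 109 of them were at 10% or more. Those elsewhere had a mean level of 2.97%, and 10 of them were at 10% or more. Inside CCGG the 2 cytosines of 1 CpG could differ widely, as at 98.8% and 9.93% in Setd6 and at 99.0% and 12.6% in Ehmt1. Other such CpGs were less far apart, as at 64.6% and 84.1% in Setd6. The mean inside CCGG is therefore not the level of each site. The mean inside CCGG was the higher one in 21 of the 21 promoters that had positions of both kinds. The single window without a listed CCGG position was that of Kat14, a subunit of an acetyltransferase complex, where the highest level was 98.7%. CCGG occurred in 78 (83.0%) of the 94 promoter windows of member genes and in 52.8% of all 32851 windows, but the member windows were also richer in CpG, with a median of 24 CpGs against 7. At both kinds of position the group means differed by less than the larger SD. Inside CCGG the mean was 57.9% ± 1.76 in exercised and 58.0% ± 1.48 in sedentary samples, and elsewhere it was 2.82% ± 0.273 and 3.12% ± 1.02.

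**Figure D1:**
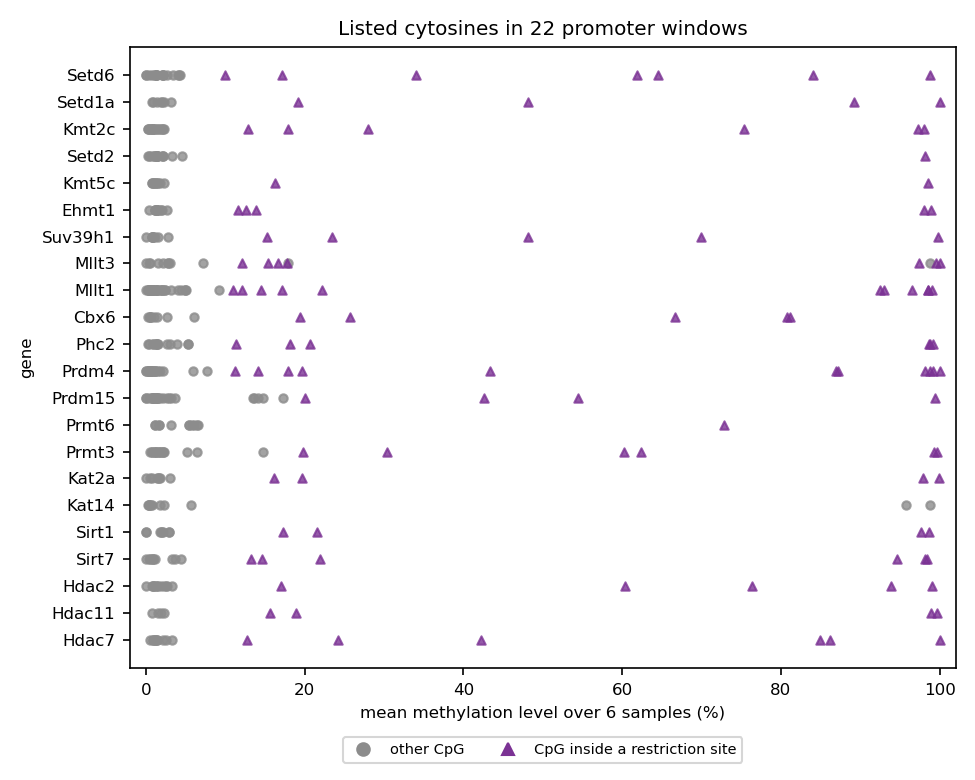
Mean methylation level over the 6 samples (x axis, percent) of each listed cytosine in the promoter windows of 22 member genes (y axis). Triangles are CpGs inside the restriction sequence, with a mean of 57.9%, and circles are other CpGs, with a mean of 2.97%; the circles near 100% belong to Kat14 and Mllt3.

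A related contrast was followed over whole regions without sequence, by the level of each position and of its neighbours. A position was called stand-alone when its mean level was at least 10% while the median level of the other listed positions within 200 bp was under 10%. Of the 110 positions inside CCGG, 101 were stand-alone, and of the 302 elsewhere 10 were. Over all members, 805 of 3087 listed positions (26.1%) were stand-alone, with a mean level of 62.1%, and the other positions averaged 4.66%. The corresponding share over the whole table was 25.4%. When both strands of a member CpG were listed, their levels differed by more than 20 percentage points in 257 of 1025 pairs (25.1%), and in 25.6% of all pairs in the table.

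The level of a region was taken as the methylated share of all its reads, and in most members it was much lower without stand-alone positions. Since such positions are chosen by their own level, this drop follows in part from their definition. The median member level was 20.6%, against 21.98% over all regions tested, and 72 of the 84 members lay between 13% and 30%. Without stand-alone positions the median member level was 2.07% (all regions 2.30%), and 65 members were under 10%. A further 17 members lay between 10% and 50%, and 2 were at 50% or more. Both of those were sirtuins. Sirt2, a mainly cytoplasmic NAD+-dependent deacetylase, had the highest level of all members, and its 4 positions included no stand-alone position. Sirt6, a nuclear deacetylase of H3K9 and H3K56, kept 51.0% without its 3 stand-alone positions. Next came Kmt5a, the H4K20 monomethyltransferase, at 47.9%, Pcgf3, a subunit of a variant Polycomb complex, at 37.9%, and Kat5 (Tip60), an acetyltransferase of H4 and H2A, at 29.6%. In this order, from Sirt2 to Kat5, these regions held 4, 11, 6, 18 and 8 listed positions, against a median of 31 over the members. A position without listed neighbours within 200 bp, or with a neighbour median of 10% or more, cannot be stand-alone. The lowest level belonged to Prdm1 (Blimp1), a transcriptional repressor, with a mean of 3.56% over the 6 samples.

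**Figure D2:**
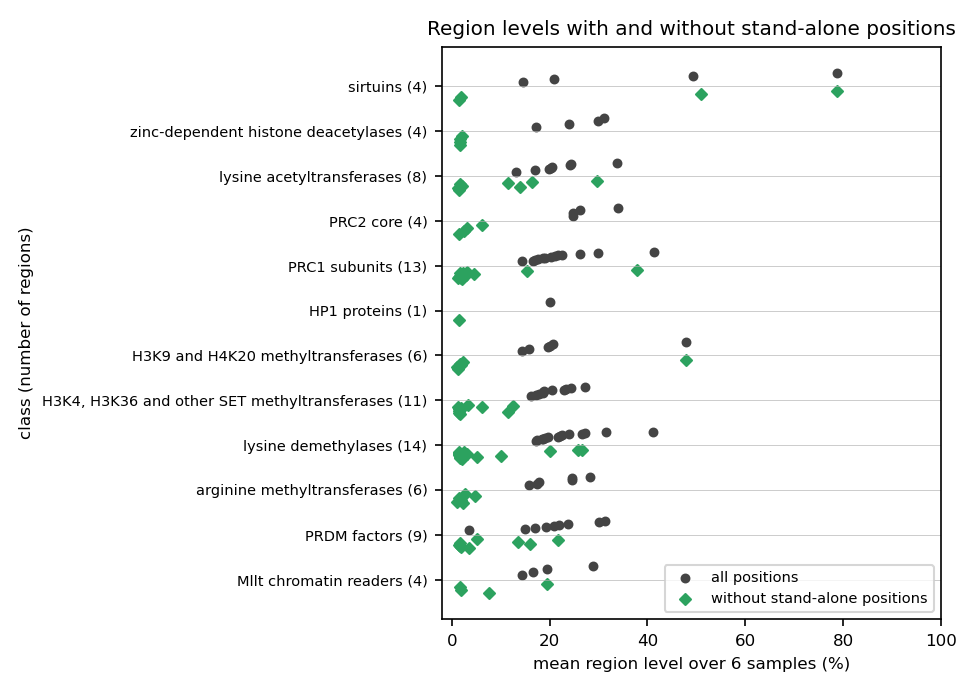
Mean methylation level over the 6 samples (x axis, percent) of each of the 84 member regions, by functional class (y axis, number of regions in parentheses). Dark circles use all positions and green diamonds leave out stand-alone positions; 65 of the diamonds lie under 10%, and the 2 highest are Sirt2 and Sirt6.

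The question of the series, as its title states it, is how DNA methylation responds to exercise. Among the 84 member regions no difference between exercised and sedentary samples passed an adjusted p of 0.05 in edgeR's quasi-likelihood test with Benjamini-Hochberg adjustment, and the smallest adjusted p was 0.9998. The same held for all 10021 regions (0%). At an unadjusted p under 0.05 there were 3 members, against 2.37% of all regions: Kmt2e was higher in exercised samples (1.46% of all regions were called in that direction) and Setd6 and Sirt6 were lower (0.908%). Leaving out 1 sample gave 1 to 4 such members, with 1 each without exercised sample 2, sedentary sample 1 or sedentary sample 3, and limma gave 3. Over all regions, leaving out 1 sample gave 169 to 601 calls. The median difference, exercised minus sedentary, was 0.206 percentage points over the members and 0.390 over all regions. It was above 0 in 46 members and below 0 in 38 (6117 and 3904 of all regions). The difference stayed within 1 point in 48 members and within 2 points in 66.

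The exercised samples all lay on one side of the sedentary samples in 7 members, against 7.25% of all regions. Such a separation has an exact two-sided permutation p of 0.1, the smallest that 3 samples against 3 can give. Kmt2e, Kmt5c, Ezh1 and Kdm6a were on the higher side (4.91% of all regions) and Setd6, Sirt6 and Hdac1 on the lower side (2.35%). Leaving out 1 sample, which leaves fewer values that can overlap, gave 10 to 18 such members, with 18 without exercised sample 3, 13 without sedentary sample 1 or 2, and 11 without exercised sample 1 or 2. These were 11.9% to 21.4% of the members, while over all regions the same step gave 12.96% to 22.1%. With the plain mean of the position levels, which gives each cytosine the same weight whatever its coverage, 9 members did not overlap (all regions 9.21%, with 5.88% higher and 3.33% lower), of which only Kmt2e, Setd6 and Kmt5c were among the previous 7. The others were Cbx7, Pcgf3, Prdm4, Prmt7 and Kdm4a on the higher side and Phc3 on the lower side. Without stand-alone positions 9 members did not overlap (all regions 9.46%, with 6.74% higher and 2.72% lower): Kmt2e, Cbx2, Ezh2, Prdm4 and Sirt1 were higher, and Phc3, Sirt6, Sirt7 and Hdac1 were lower. Kmt2e alone did not overlap under all 3 definitions. These draw on the same reads, and the share of all regions without overlap under all 3 was not counted. The groups of Kmt2e did overlap when each position needed at least 20 reads in every sample (difference 1.22 points). The sign of the difference was unlike between the pooled level and the plain mean in 22 of the 84 members. Of 18 members with a pooled difference over 2 points, 7 also had a plain difference over 2 points with the same sign.

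**Figure D3:**
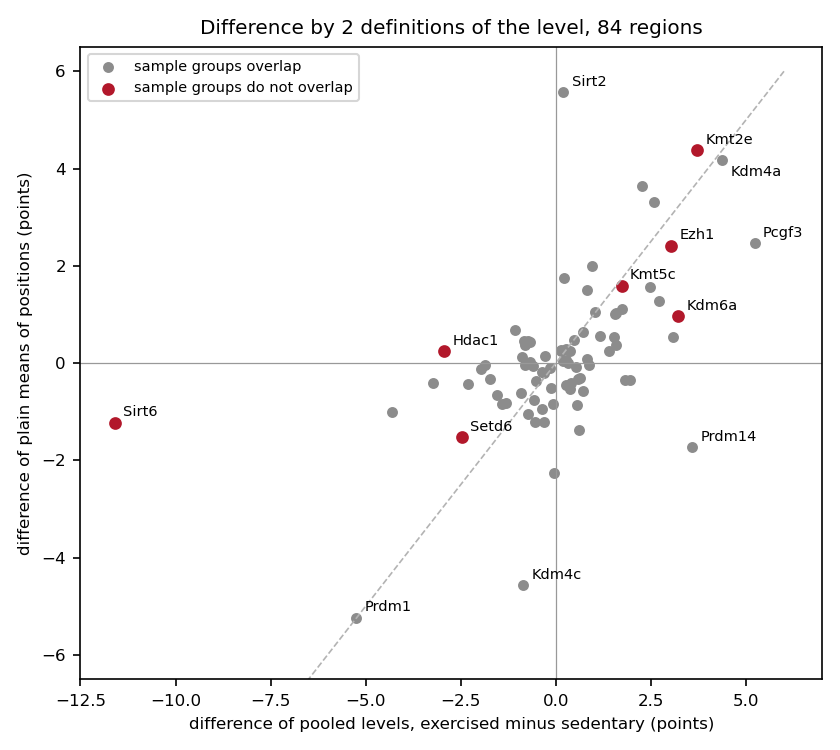
Difference between exercised and sedentary samples in each of the 84 member regions, in percentage points, with the level as the share of all reads (x axis) and as the plain mean of the positions (y axis). The dashed line marks equal values, red points are the 7 members whose sample groups do not overlap in the pooled level, and Sirt6 lies at -11.6 on the x axis and -1.23 on the y axis.

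**Figure D4:**
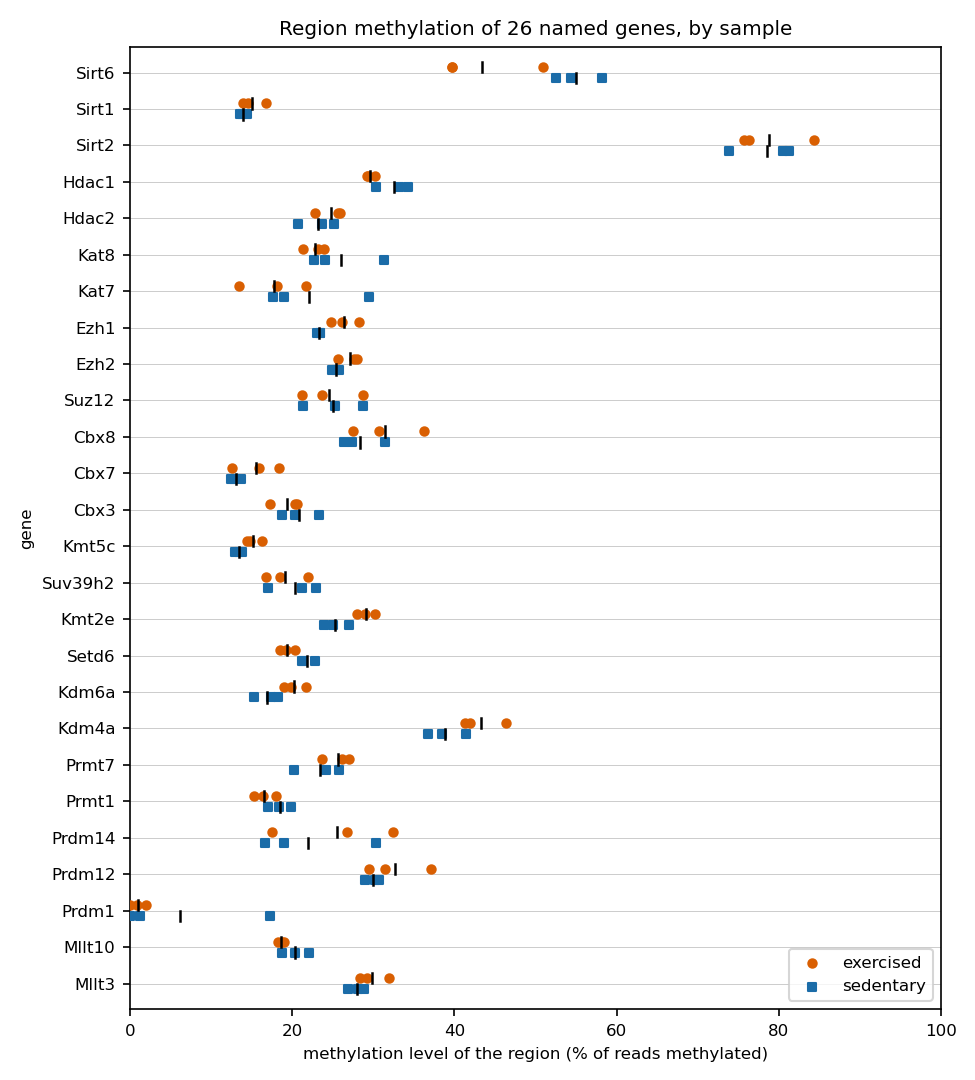
Methylation level (x axis, percent of reads methylated) of the regions of 26 named genes (y axis) in each of the 3 exercised (circles) and 3 sedentary (squares) samples, with black bars at the group means. Sirt2 and Sirt6 lie to the right of most other regions, Sirt6 has all 3 circles left of its squares, and the 1 high value of Prdm1 is sedentary sample 3.

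Among the methyltransferases of the SET families, 11 regions belonged to the H3K4, H3K36 and related enzymes, 6 of them higher and 5 lower in exercised samples, with a median difference of 0.271 points. Kmt2e (Mll5), a SET-domain protein that binds H3K4me3, lay at chr5:22938247-22941246 (mm9) and held 27 positions. Exercised samples 1 to 3 had levels of 30.2%, 28.0% and 28.9%, and sedentary samples 1 to 3 had 25.1%, 27.1% and 23.9%. The groups did not overlap, and exercised sample 2 lay closest to the sedentary samples. The difference was 3.71 points (edgeR, adjusted p = 0.9998). Without its 13 stand-alone positions the level was 5.27% ± 2.93 against 1.38% ± 0.284, still without overlap. With at least 20 reads in every sample, which left 12 of the 27 positions, the level was 22.9% ± 2.79 against 21.7% ± 1.9995, with overlap and a difference of 1.22 points.

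Setd6, which methylates the NF-kB subunit RelA and other proteins, lay at chr8:98237813-98240812 (mm9) with 38 positions. Its exercised samples had 20.3%, 19.2% and 18.5%, and its sedentary samples 22.9%, 21.4% and 21.2%. All exercised samples were below all sedentary ones, with a mean difference of -2.47 points (edgeR, adjusted p = 0.9998). With the plain mean the level was 15.9% ± 0.780 against 17.4% ± 0.499, and without stand-alone positions it was 1.52% ± 0.715 against 2.42% ± 0.708 with overlap.

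The 6 regions of H3K9 and H4K20 methyltransferases had a median difference of -0.310 points, 2 higher and 4 lower. Kmt5c (Suv420h2), which makes H4K20me3 in heterochromatin, had 14.7%, 16.3% and 14.5% in exercised and 13.5%, 13.9% and 12.97% in sedentary samples. The groups did not overlap, and the difference was 1.73 points. Only 2 of its 12 positions were stand-alone, both of them being the CCGG cytosines of the window shown. Suv39h2, an H3K9 methyltransferase, overlapped between the groups at 19.1% ± 2.60 and 20.4% ± 3.01. Its difference of -1.31 points became 0.0583 without stand-alone positions. Kmt5a, the most methylated region of the class, had 48.4% ± 5.67 and 47.4% ± 3.19.

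The 6 arginine methyltransferases had a median difference of -0.174 points, 3 higher and 3 lower. Prmt7, which makes monomethylarginine, had a pooled level of 25.6% ± 1.73 in exercised and 23.4% ± 2.89 in sedentary samples, with overlap. Its plain mean of 24.7% ± 0.592 against 21.0% ± 2.37 did not overlap, yet with a coverage of at least 20 reads at every position the difference was -1.33 points. Prmt1, the main enzyme for asymmetric dimethylarginine, had 16.6% ± 1.37 and 18.4% ± 1.43, a difference of -1.87 points that was -0.0476 with the plain mean.

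The 8 lysine acetyltransferases had 4 higher and 4 lower regions, with a median difference of -0.352 points, and no member passed an unadjusted p of 0.05. The largest differences of the class were in members of the MYST family. Kat7 (Hbo1), an H3K14 acetyltransferase, had 18.1%, 21.7% and 13.4% in exercised and 29.5%, 17.6% and 19.0% in sedentary samples. The groups overlapped, and the difference of -4.30 points was -0.591 without sedentary sample 1. Kat8 (Mof), the H4K16 acetyltransferase, had 22.8% ± 1.33 and 26.04% ± 4.66, and its difference of -3.23 points was -0.571 without the same sample. In both regions sedentary sample 1 was the highest of the 6.

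The lysine demethylases were the largest class, with 14 regions, 7 higher and 7 lower, and a median difference of 0.0961 points. Kdm6a (Utx), the X-linked H3K27 demethylase, lay at chrX:17737793-17740792 (mm9), had 25 positions and was among the least covered members, at 24.3 reads per position. Its levels were 19.8%, 18.9% and 21.8% in exercised and 15.2%, 18.2% and 17.4% in sedentary samples, without overlap. The difference was 3.23 points. With the plain mean it was 0.967 points and the groups overlapped. Kdm4a (Jmjd2a), which removes methyl groups from H3K9 and H3K36, had the higher mean level of 41.1% and a difference of 4.37 points. Its levels were 43.2% ± 2.76 in exercised and 38.9% ± 2.40 in sedentary samples. Its exercised samples ranged from 41.3% to 46.4% and its sedentary samples from 36.7% to 41.4%, so that the groups met at their edges. With the plain mean the values were 36.7% ± 3.89 and 32.5% ± 1.504, without overlap.

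Among the zinc-dependent deacetylases 4 regions were measured, 2 higher and 2 lower, and all 4 were under 10% without stand-alone positions. Hdac1, a catalytic subunit of the Sin3, NuRD and CoREST complexes, had 30.3%, 29.4% and 29.3% in exercised and 34.2%, 30.3% and 33.1% in sedentary samples. The groups did not overlap, but the highest exercised and the lowest sedentary sample lay side by side. The difference was -2.94 points. It turned to 0.246 points with the plain mean. Hdac2, the close paralog of Hdac1, had 24.8% ± 1.68 and 23.2% ± 2.25, with overlap. Hdac7 and Hdac11, a class IIa and a class IV deacetylase, differed by -0.149 and 0.707 points.

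The 4 sirtuins, NAD+-dependent deacylases, held the largest pooled difference of all members. Sirt6 lay at chr10:81089068-81092067 (mm9) and had 11 positions with a mean coverage of 30.5 reads. Exercised samples 1 to 3 had levels of 51.0%, 39.7% and 39.7%, and sedentary samples 1 to 3 had 58.2%, 54.4% and 52.5%. Every exercised sample was below every sedentary one, with a mean difference of -11.6 points (edgeR, adjusted p = 0.9998). It was -15.4 points when exercised sample 1 was left out and -9.71 when exercised sample 3 was, and the other samples gave values in between. The plain mean of the 11 positions was 48.6% ± 2.75 against 49.8% ± 3.38, with overlap and a difference of -1.23 points. With at least 20 reads in every sample, which left 4 of the 11 positions, it was 77.3% ± 2.46 against 78.0% ± 6.60, with overlap and a difference of -0.789 points. The 2 positions with the largest differences, described next, are not among those 4.

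The reads of Sirt6 were spread differently over its positions in the groups. Of the 11 positions, 3 were under 10%, and they took 23.9%, 31.8% and 31.6% of the reads of exercised samples 1 to 3 and 20.4%, 24.2% and 21.0% of those of sedentary samples. The mean share was thus higher in exercised samples (29.1%) than in sedentary samples (21.9%), opposite to the pooled level. The part of this share in the difference was not tested. Position by position, 3 unmethylated cytosines lay within a short stretch between strongly methylated ends of the listed area. At position 81090199, a stand-alone position, the level was 19.5%, 19.5% and 15.2% in exercised and 41.7%, 48.7% and 33.3% in sedentary samples. The groups were apart there by 23.2 points (18.1% ± 2.47 against 41.2% ± 7.70), with an adjusted p of 0.919 in edgeR, and the authors' deposited table puts this Sirt6 position in its strongly hypomethylated class. The cytosine next to it on the other strand, 81090198, had 95.2% ± 0.978 and 89.6% ± 5.85, without this difference. At position 81089357 the level of Sirt6 was 79.2% ± 6.28 against 98.7% ± 2.31 (edgeR, adjusted p = 0.919). The other 8 positions of Sirt6 differed by between -0.794 and 7.75 points.

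**Figure D5:**
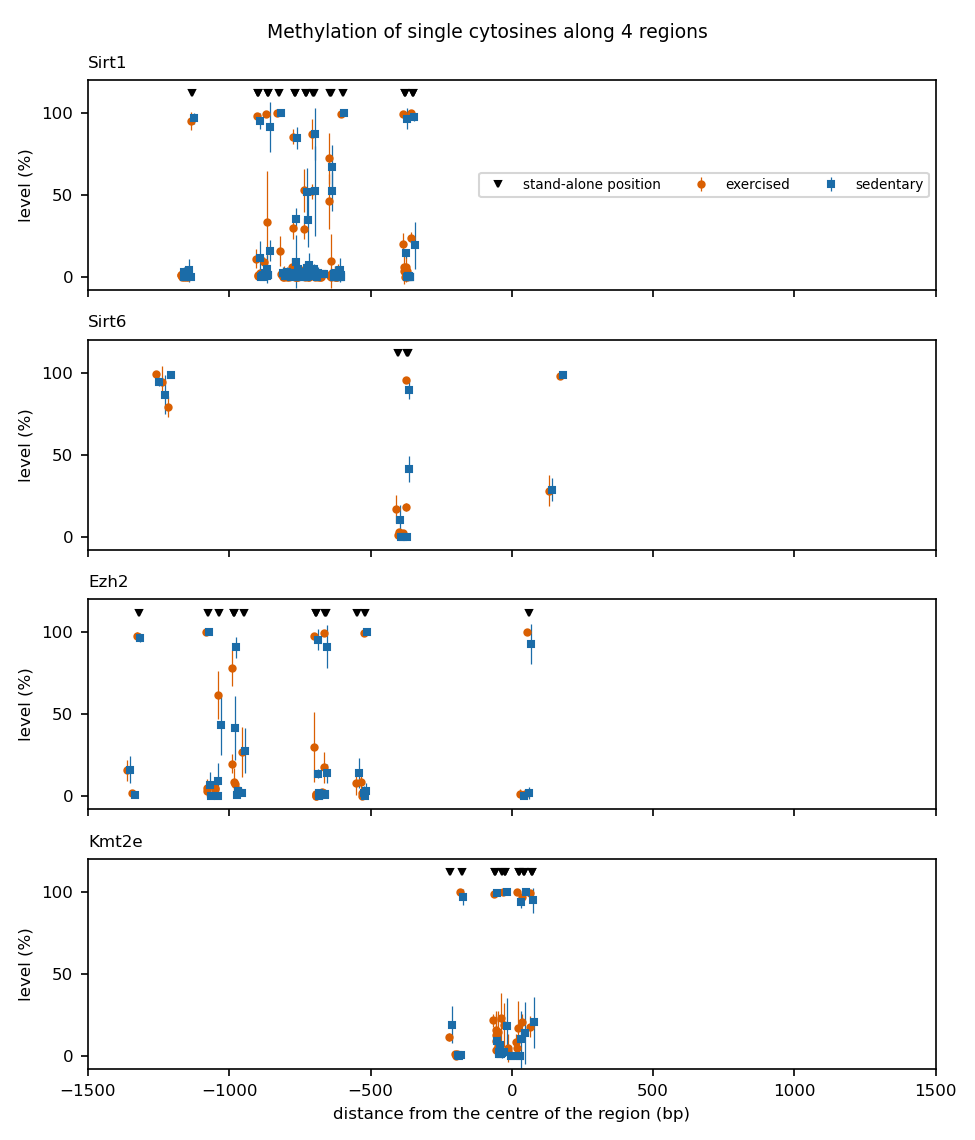
Methylation level (y axis, percent, mean and SD of 3 samples) of each listed cytosine of Sirt1, Sirt6, Ezh2 and Kmt2e against its distance from the centre of the 3000 bp region (x axis, bp), with exercised samples as circles, sedentary samples as squares and the groups set slightly apart for view. Triangles above mark stand-alone positions, and in Sirt1, Ezh2 and Kmt2e the points split into a row near 0% and scattered high points below those triangles.

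Sirt1, the deacetylase of PGC-1alpha, was the most densely covered sirtuin with 105 positions, 19 of them stand-alone. Its levels were 16.8%, 14.5% and 13.9% in exercised and 14.4%, 13.5% and 13.8% in sedentary samples. The groups overlapped, with exercised sample 1 the highest. The difference was 1.17 points and 0.325 without exercised sample 1. Without stand-alone positions Sirt1 was almost unmethylated, at 1.69% ± 0.420 after exercise and 1.10% ± 0.116 in sedentary samples, which did not overlap and differed by 0.589 points. Sirt7, a nucleolar H3K18 deacetylase, had 21.0% ± 1.69 and 20.7% ± 0.895.

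Sirt2 stood at the other end. Its region had 4 positions at a mean coverage of 30.1 reads, and its levels were 75.7%, 76.3% and 84.3% in exercised and 80.6%, 81.2% and 73.9% in sedentary samples. The groups overlapped fully and the difference was 0.194 points, but with the plain mean it was 5.58 points. Within Sirt2, 2 positions averaged 98.6% and 99.5% over the samples, while the 2 strands of a further CpG, at 29551932 and 29551933, averaged 22.4% and 88.0%. At the second of these Sirt2 positions sedentary sample 3, with 11 reads, was at 45.5%, and the other 5 samples were at 93.3% to 100%.

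The Polycomb members were described in their 2 complexes. The 4 core regions of PRC2, which makes H3K27me3, had a median difference of 0.986 points, 3 higher and 1 lower, and their share of stand-alone positions was 40.0%. Ezh1, the catalytic subunit that persists in differentiated muscle, had 28.2%, 24.7% and 26.1% in exercised and 23.4%, 23.4% and 23.1% in sedentary samples. The groups did not overlap, and the difference was 3.04 points. With the plain mean Ezh1 differed by 2.41 points, with overlap.

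Ezh2, the catalytic subunit of proliferating cells, had 27.6%, 25.6% and 28.0% in exercised and 25.4%, 25.7% and 24.9% in sedentary samples. Exercised sample 2 lay among the sedentary samples, and the difference was 1.75 points. Without its 13 stand-alone positions Ezh2 had 3.85% ± 0.740 after exercise against 2.19% ± 0.439, without overlap. Suz12, which holds the complex together, had 21.2%, 23.7% and 28.7% in exercised and 28.7%, 25.3% and 21.3% in sedentary samples. These ranges coincided, and the difference of -0.536 points turned to 2.10 without stand-alone positions. Eed, the H3K27me3-binding subunit, had 34.1% ± 1.57 and 33.8% ± 3.64.

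The 13 PRC1 regions, of 12 genes, had a median difference of 0.183 points, 8 higher and 5 lower, and none was apart in the pooled level. Cbx7 and Cbx8, chromodomain subunits that bind H3K27me3, were both higher in the exercised means. Cbx8 had 31.5% ± 4.39 and 28.4% ± 2.72, and Cbx7 had 15.6% ± 2.94 and 13.02% ± 0.612. Both differences rested in part on exercised sample 1, and without it they were 0.724 points for Cbx8 and 1.17 points for Cbx7. Pcgf3 had the largest positive pooled difference of all members, 5.23 points, but its exercised samples were spread widely, at 44.0% ± 8.88 against 38.7% ± 0.989 in sedentary samples. Its plain mean was 48.9% ± 1.28 against 46.4% ± 0.939. The 2 regions of Phc2, a polymerizing Polyhomeotic subunit, differed by 0.605 and -0.733 points. Cbx3 (HP1gamma), which binds H3K9me3 and is no Polycomb subunit, had 19.4% ± 1.87 and 20.8% ± 2.27.

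The 9 PRDM factors, zinc finger proteins with a SET-related domain of which some methylate histones, had 7 higher and 2 lower regions and a median difference of 0.953 points. Prdm14, a factor of germ and pluripotent cells, had 25.6% ± 7.54 and 21.99% ± 7.36, and its difference of 3.59 points was -1.74 with the plain mean. It ranged from 0.166 points without exercised sample 1 to 7.78 without sedentary sample 3, and was 0.895 without sedentary sample 2, 2.08 without sedentary sample 1 and 7.63 without exercised sample 3. Prdm12, a factor of sensory neurons, had 32.7% ± 4.02 and 29.97% ± 0.930. Prdm1 had 0%, 0.885% and 1.92% in exercised and 1.23%, 0% and 17.3% in sedentary samples. Its difference of -5.24 points rested on sedentary sample 3 and was 0.319 points without that sample. Sedentary sample 3 had the lowest total coverage, but at the Prdm1 positions sedentary sample 1 had fewer reads, 20 or 21 each. All 4 positions of Prdm1 lay within a short stretch, and sedentary sample 3 had between 15.4% and 19.2% at each, from 26 reads per position. Positions this close can share reads, and whether they did was not tested.

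The 4 Mllt regions had a median difference of -0.623 points, 1 higher and 3 lower. Mllt10 (AF10), a partner of the H3K79 methyltransferase Dot1l, had 18.6% ± 0.371 and 20.4% ± 1.71, with overlap. Mllt3 (AF9), a YEATS-domain reader of acetylated lysine, had 29.9% ± 1.87 and 27.9% ± 1.03. Its difference of 1.96 points was -0.344 with the plain mean.

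At single cytosines, none of 2894 member positions tested passed an adjusted p of 0.05 in edgeR's test (0% of 253960 positions over the table), and the smallest adjusted p was 0.919. At an unadjusted p under 0.05 there were 100 member positions, 3.46% of those tested against 3.32% over the table, with limma giving 91. Of these, 53 were higher in exercised samples (1.9% of all positions) and 47 lower (1.41%). Leaving out 1 sample gave 49 to 82, against 4440 to 7142 over the table. The lowest of these was without exercised sample 2, and 57 were found without exercised sample 3 and 62 without exercised sample 1 or sedentary sample 3.

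The 10 member positions with the smallest p, 5 in each direction, shared 1 feature: the samples of one group were all at 0%. At 136457138 in Kdm5b (Jarid1b), an H3K4 demethylase, exercised samples had 35.0%, 15.4% and 23.7% and all sedentary samples 0%, from 10 to 40 reads per sample (edgeR, adjusted p = 0.919). A second Kdm5b position, 136457108, had 6.15% ± 1.58 against 0%. In Prmt3, an arginine methyltransferase of ribosomal protein, position 57033661 had 11.1%, 6.38% and 13.9% against 0% in every sedentary sample. In these 3 positions every exercised sample was above every sedentary one, as was also so at the Setd1b and Phc1 positions described next. All were chosen by their small p. With every sedentary sample at 0%, any methylated read in each exercised sample gives this separation. How often it occurs over all positions was not counted.

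In others most of the difference came from 1 or 2 samples. Setd1b, an H3K4 methyltransferase, had 38.9% in exercised sample 1 and 1.67% and 1.82% in the others at position 123592692, against 0%. Phc1, a Polyhomeotic subunit, had 16.05% in exercised sample 1 at 122289796 and 1.88% and 1.64% in the other 2. On the lower side, Kmt2d (Mll4), an enhancer H3K4 methyltransferase, had 12.4%, 0% and 3.64% in sedentary samples at 98702016 and 0% in all exercised ones. Kat6a (Moz), an H3K23 acetyltransferase, had 23.3%, 0% and 21.4% in sedentary samples at 23970737. Pcgf6 and a Phc2 region were also on the lower side, with sedentary means of 8.55% and 4.99%. The cytosine on the other strand was listed for 7 of the 10 positions, and none of those 7 had an unadjusted edgeR p under 0.05.

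In the authors' deposited table, 78 of the 2894 tested member positions (2.70%) had an unadjusted p-value under 0.05, against 3.13% of all positions. In the authors' deposited table, 9 member positions were in the strong classes, which hold 0.211% of the tested positions. The authors' deposited table called 4 of these higher in exercised samples (0.0878% of all) and 5 lower (0.124%). All 9 were stand-alone positions, as were 397 (73.9%) of the 537 strong positions over all regions. Only positions with a mean level of at least 10% can be stand-alone. Of the 83223 such positions over the table, 68303 were stand-alone. In the members, 805 such positions were stand-alone and 113 were not. The genes of the 9 strong positions were Kdm5b, Kmt2c, Kdm5a and Pcgf1 on the higher side and Kdm7a, Sirt6, Prmt3, Kmt2b and Cbx2 on the lower side. The widest gap was at 118885160 in Cbx2, a PRC1 chromodomain subunit, with 13.3%, 26.3% and 35.7% in exercised and 62.5%, 48.3% and 84.2% in sedentary samples, from 15 to 29 reads each. At 39156190 in Kdm7a, a demethylase of H3K9 and H3K27, the values were 48.9%, 43.4% and 38.2% against 66.1%, 75.5% and 66.7%. At 120314142 in Kdm5a, an H3K4 demethylase, they were 75.5%, 74.5% and 54.4% against 36.8%, 48.0% and 44.2%. Groups did not overlap in these positions, and each of the 9 had an adjusted p of 0.919 in edgeR. The positions were picked by the authors' class, which rests on the same 6 samples, so their separation is no separate evidence.

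Other chromatin genes, from a list of 56 symbols outside the rule (SMYD and NSD methyltransferases, corepressors, NuRD, COMPASS and Polycomb accessory subunits, bromodomain readers), gave 46 tested regions. None passed an adjusted or an unadjusted edgeR p of 0.05, 31 were higher and 15 lower, and the median difference was 0.374 points. The nearest were Riox1, a JmjC protein, at 15.5% ± 1.46 against 13.8% ± 0.915, and Cdyl, a chromodomain corepressor, at 19.8% ± 0.835 against 18.2% ± 0.961. Sin3a, the scaffold of an Hdac1 complex, had the single region of the list whose groups did not overlap (all regions 7.25%), at 19.8% ± 1.002 against 17.5% ± 0.930. A second Sin3a region overlapped, at 21.2% ± 1.62 against 21.4% ± 1.61.

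Marker genes of the tissue's cell types were measured in 16 regions, where the value is DNA methylation and says nothing of expression, so the labelled tissue could not be checked by it. The muscle genes Acta1, Des and Actn2 had 73.7% and 71.0%, 28.8% and 27.3%, and 0.641% and 1.58% in exercised and sedentary samples. Regions of endothelial, adipocyte, leukocyte, fibroblast and nerve genes differed by between -8.03 points (Lep) and 8.17 points (Sox10). None of the 16 marker regions had an unadjusted edgeR p under 0.05, and the part of cell type proportions in the member differences was not tested.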

How the data were processed

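Each deposited position has, per sample, a methylated fraction (0 to 1) and a coverage count, both made by the authors. Further deposited columns hold, per position, the authors' difference between the groups, p-value and class. Per the submitters' processing notes, Bismark 0.7.7, Bowtie 0.12.9, Trim Galore 0.2.5 and cutadapt 1.0 were used with the build mm9, in roles and with settings not given in the sources used here. The same holds for how the regions were placed on genes. Every listed position had at least 10 reads in all 6 samples. The fraction times the coverage was whole within 0.00236 of a read, and gave methylated and unmethylated counts. Symbols came from RefSeq (GRCm38.p6, names only) for 10655 of 10755 transcripts.

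Counts were summed per region with at least 3 positions, or kept per position. They were tested with edgeR 4.0.16 (R 4.3.3) by the quasi-likelihood test with a term per sample, no dispersion trend and Benjamini-Hochberg adjustment over all regions or positions. Positions with the same call in every read were left out of the position test. The labels name no molecular identifiers, so reads may not be independent molecules. As alternatives, each sample was left out in turn, a replicate block was added, and the positions or regions were limited to a coverage of at least 20, no stand-alone positions, no positions above the 99.9th percentile of coverage, or at least 5 positions, with limma 3.58.1 (offset 2), merged strands and the plain mean as further ones.

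The members and lists were chosen with earlier results of these data known, and the Mllt class was split off after the data were seen. Named were, per class, the 2 members with the smallest p, members apart by at least 5 points without overlap, Sirt1, Sirt3, Sirt6, Hdac4, Hdac9, Ezh2 and Suz12 where measured, the highest and lowest member, and 5 positions per direction, of which 1 is not reported here. Other members were named after their values were seen: those that did not overlap under another definition of the level, paralogs or complex partners of a named member, members with a high level without stand-alone positions, promoter windows shown or matched, genes of strong positions in the authors' deposited table, and the 3 genes from the wider chromatin list.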

Additional observations from a re-analysis of the deposited data

How the results depend on the processing

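No region and no position passed an adjusted p of 0.05 under any alternative run, and the smallest adjusted p of a named member under any of them was 0.804. Regions with an unadjusted p under 0.05 numbered 237, and 440 without stand-alone positions. Leaving out 1 sample gave 169 to 601 (601 without exercised sample 3). The 3 member regions became 1 at a coverage of at least 20, and 1 to 4 with 1 sample left out. The 7 members without overlap (7.25% of all regions) became 9 without stand-alone positions (9.46% of all regions). With 1 sample left out they became 10 to 18, while the share over all regions rose to between 12.96% and 22.1%. Positions numbered 8426, and 4440 to 7142 with 1 sample left out. Member positions numbered 100, and 49 to 82.

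The replicate block gave 1852 positions and 22 member positions at an unadjusted p under 0.05. It gave 204 of the 10021 regions, against 237 in the main test. Among the members it gave 2 regions, Sirt6 and Prdm1, in place of Kmt2e, Setd6 and Sirt6. The difference of Prdm1 rested on sedentary sample 3. The block leaves fewer residual degrees of freedom. Same-numbered samples had deviations correlated at 0.0190, -0.219 and -0.111, and different-numbered ones at -0.101 to 0.221. Deviations taken within groups of 3 offset each other, so these correlations cannot decide whether the numbers mark pairs. Nothing in the labels ties the numbers to animals or batches, and the main test therefore used no pairing.

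Of 26 named members, 8 changed direction under some alternative. The other 18 kept it under those run for them, of which 16 had a value under each. The coverage of at least 20 gave no value for Kat7, Kdm6a, Sirt2 and Prdm14, at least 5 positions none for Sirt2 and Prdm1, and merged strands were run for counts only. Without a change of direction, the difference moved by over 1.5 times in 17 named members with the plain mean, in 15 without stand-alone positions, in 7 at a coverage of at least 20 and in 4 to 10 with 1 sample left out. At a coverage of at least 20 Sirt6 was at -0.789 points, Kmt2e at 1.22, Kat8 at -9.67, Mllt3 at 4.22, Cbx8 at 1.56, Kdm4a at 2.31 and Sirt1 at 2.06. Without stand-alone positions Suv39h2 was at 0.0583 points and Suz12 at 2.10. With the plain mean Mllt3 was at -0.344, Prdm14 at -1.74 and Hdac1 at 0.246. At a coverage of at least 20 Suz12 was at 1.26 and Prmt7 at -1.33. With limma the coefficient of Sirt2 was 0.0329 on the log2 scale, against -0.0882 in edgeR. With 1 sample left out Suz12 ranged from -2.62 to 1.27, Prdm1 from -8.34 to 0.319 and Sirt2 from -2.58 to 1.74. The cause was not tested. Depth was lowest in sedentary sample 3, with a median of 27 reads per position, and 3 samples a group limit what differences can pass.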
